A study of Mus musculus with 6 samples.

Results

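Histone-modifying and chromatin-remodelling enzymes were examined in 2 fractions of sorted mouse hematopoietic stem cells. Members were taken by gene symbol from the array annotation: lysine demethylases (Kdm), methyltransferases (Kmt2, Setd, Ehmt and Nsd), deacetylases (Hdac and Sirt), numbered acetyltransferases (Kat), remodelling ATPases and their partners (Smarc and Chd) and bromodomain proteins (Brd). The name rule, which leaves out Kdm5c, Kdm5d and Kdm6a, took 221 probe sets of 93 genes. Testing needed a value above log2 4 on 3 or more of the 6 arrays, which 164 probe sets of 84 genes met, out of 19613 tested probe sets and 9460 tested genes. A probe set is the group of short probes on the array that reads 1 stretch of transcript, and many genes have several.

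Lower-SP and Upper-SP are the lower and upper parts of the side population, cells recognised by their efflux of a DNA-binding dye. Both were sorted from the bone marrow of male C57Bl/6 (CD45.1) mice aged 10 weeks as Lineage-, Sca-1+ and c-Kit+ cells. No allele, transgene or drug treatment is named for either fraction. Each fraction was measured on 3 arrays, 1 per biological replicate, from 3 pools of mice sorted on separate days, so a value is an average over pooled animals, and precision is limited by how few arrays there are. Values are on the log2 expression scale, a difference is the Lower-SP mean less the Upper-SP mean on that scale, and means are given ± SD with n = 3.

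DNA in the nucleus is wound around histone proteins, and enzymes that add or remove methyl and acetyl groups on histone tails mark chromatin as open or closed. Methyltransferases and acetyltransferases write these marks, demethylases and deacetylases erase them, bromodomain proteins read acetylated tails, and remodelling ATPases slide or evict nucleosomes. In blood stem cells several of these enzymes, such as Kmt2a and Setd2, are known to be needed for self-renewal or lineage choice.

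Of the 84 member genes, each read through its brightest tested probe set, 28 changed between the fractions at an adjusted p under 0.05 (33.3%, against 27.7% of all tested genes). In Lower-SP 12 were higher (14.3%, against 7.05% of all genes) and 16 were lower (19%, against 20.7%). Counted over probe sets, 50 of 164 changed (30.5%, against 28.1% of all tested probe sets). Of these, 30 were higher (18.3%, against 10.7%) and 20 lower (12.2%, against 17.5%). The 30 include a Chd8 probe set that was tested through its Lower-SP arrays alone and could be called only higher. The median difference was -0.28 over member genes and -0.24 over all tested genes. Groups without overlap were seen for 52.4% of member genes (28 of 84 lower and 16 higher), against 45.7% of all genes (32.3% lower and 13.4% higher), and for 52.4% of member probe sets, against 46.1%. The number of lower member genes, 16 with all arrays, became 9 or 5 when replicate 1 or 2 of Lower-SP was omitted. Omitting replicate 1 or 2 of Upper-SP gave 3 or 6. The lower count over all tested genes fell too, from 1958 to 1230 or 978 without those Lower-SP replicates. Without those Upper-SP replicates it was 425 or 798. Scaling by cyclic loess gave 14 higher and 10 lower genes (58.3% of the called genes higher, against 42.9% with the deposited scaling). Over all tested genes it gave 40.2% of the called genes higher, against 25.4%, and moved their median difference to -0.12.

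**Figure D1:**
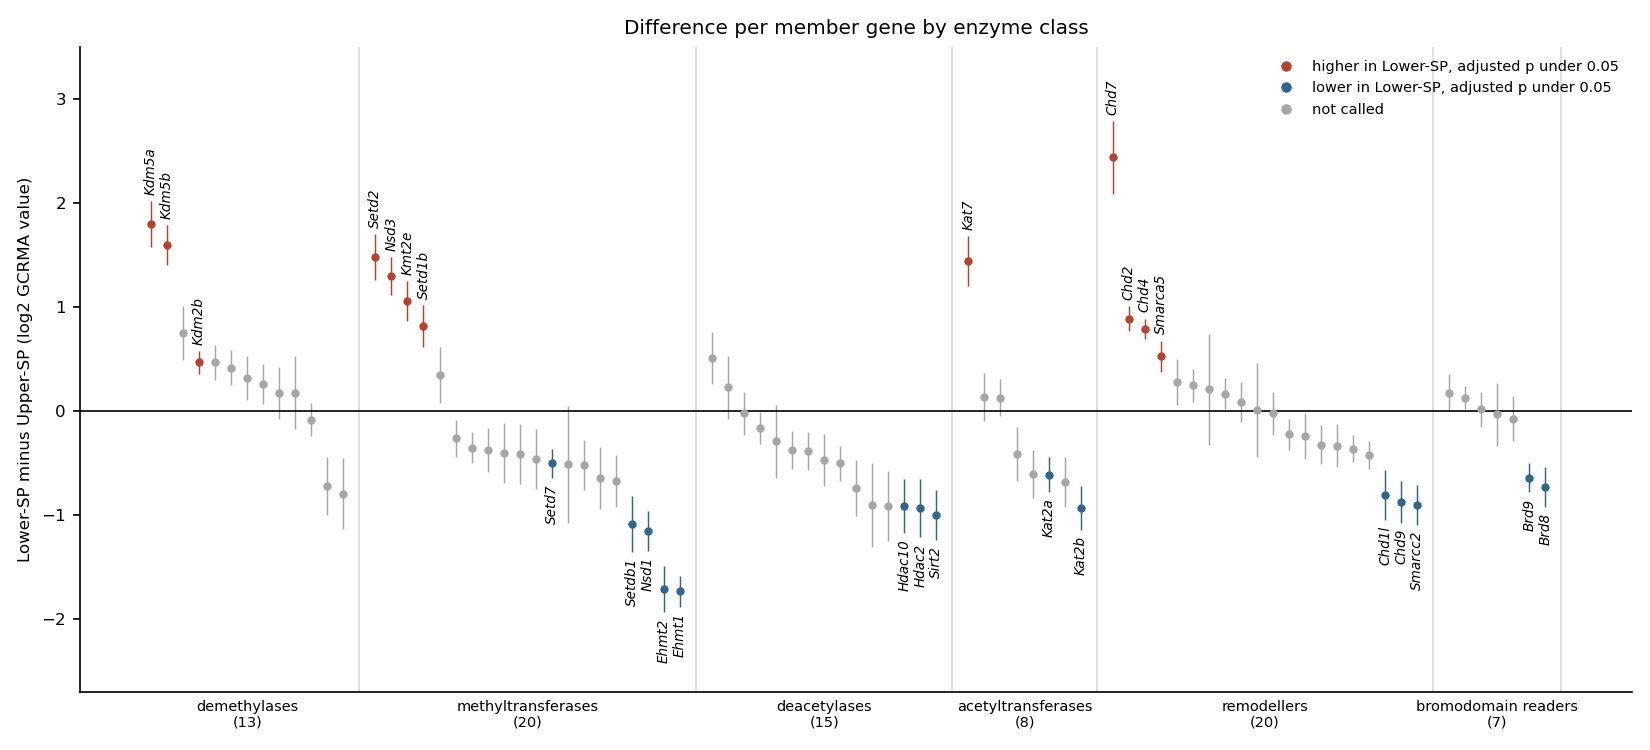
Difference between Lower-SP and Upper-SP in log2 units (y axis) for the brightest tested probe set of each member gene except the metabolic Nsdhl, grouped by enzyme class (number of genes in brackets). Points are differences, bars are standard errors, and colour marks genes that passed at an adjusted p under 0.05. Chd7, at 2.44, lies highest, and Ehmt1, at -1.73, lies lowest.

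The arrays of a fraction correlated at r = 0.952 to 0.991 across tested probe sets, and arrays of different fractions at 0.911 to 0.938. Lower-SP replicate 3 stood apart from the others of its fraction, at r = 0.952 and 0.955 to replicates 1 and 2, which correlated at 0.983. Upper-SP replicate 3 did so to a lesser degree, at 0.979 and 0.967 to its replicates 1 and 2, which correlated at 0.991. It was also the Upper-SP array closest to each of the Lower-SP arrays, at 0.934, 0.938 and 0.926. All 9 annotated stem cell and progenitor markers were tested, with 0 higher and 4 lower by limma. The lower ones were Flt3 (-2.22), Cd34 (-1.41), Abcg2 (-1.04) and Kit (-0.92), and Procr differed by -0.05. Of 13 annotated neutrophil markers, 8 were tested, with 4 higher and 1 lower, and their summed level was log2 14.3, 13.8 and 11.9 on the Lower-SP arrays, against 12.3, 12.3 and 12.1 on the Upper-SP arrays. S100a8 read 13.19, 12.60 and 9.16 in Lower-SP, against 7.62, 7.87 and 6.95 in Upper-SP, and the granule gene Ngp read 11.35, 10.79 and 7.01 against 7.13, 7.60 and 4.42. Prtn3, the called lower one, carried most of the sum in Upper-SP, while Elane and Ctsg stayed under log2 4 on every array. The summed B and plasma cell markers read 9.94, 9.61 and 7.40 in Lower-SP, against 12.5, 12.7 and 11.4 in Upper-SP, with 6 of 10 under log2 4 throughout. Igha, the only one called (-4.42), carried most of that sum in Upper-SP. Cd79b (-0.37), Jchain (-1.82) and Ms4a1 (0.42) did not pass. T and NK, erythroid and endothelial markers had 7 of 8, 4 of 6 and 4 of 8 under log2 4 throughout. The part of these cells in the results below was not tested. In Lower-SP replicate 3 the summed level was no higher than in Upper-SP, but S100a8, S100a9, Chil3 and Lcn2 each still lay above every Upper-SP array. For some members the difference of this replicate from the Upper-SP mean is given as a value with no test, since it is 1 array. In such bulk samples fewer cells that express a gene and less RNA per cell cannot be told apart.

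The called lysine demethylase genes were all higher in Lower-SP, led by the paralogs Kdm5a and Kdm5b, which remove activating methyl marks near promoters. Of 13 tested demethylase genes, 3 were higher and 0 lower by limma (23.1% and 0%, against 7.05% and 20.7% of all genes, and 6 higher and 1 lower at an unadjusted p under 0.05), with a median of 0.32. That median kept its sign with quantile normalization (0.42), cyclic loess (0.47) and centring (0.41). Over probe sets, 6 of 26 were higher and 1 lower, against 10.7% and 17.5% of all tested probe sets. The class averaged 7.92, 7.82 and 7.96 on the Lower-SP arrays, against 7.59, 7.40 and 7.59 on the Upper-SP arrays.

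Kdm5a read 9.73, 9.45 and 9.15 on the Lower-SP arrays, against 7.75, 7.35 and 7.83 on the Upper-SP arrays. Every Lower-SP array lay more than a log2 unit above every Upper-SP array, and the difference was 1.80 (SE 0.22, 3.47-fold, adjusted p = 0.0029). A second Kdm5a probe set read 8.79, 8.45 and 9.40 in Lower-SP and 7.03, 6.18 and 7.44 in Upper-SP (difference 1.99, adjusted p = 0.0088). The other tested one differed by 0.97 without overlap and did not pass (adjusted p = 0.058). All 3 tested probe sets of the gene thus lay on the same side.

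Kdm5b read 10.01, 10.28 and 10.50 in Lower-SP, against 8.75, 8.43 and 8.82 in Upper-SP (difference 1.60, SE 0.19, 3.02-fold, adjusted p = 0.0026). A dimmer probe set gave 6.92, 6.89 and 6.00 against 4.26, 4.22 and 3.52 (difference 2.60, adjusted p = 0.0034). On the remaining tested probe set of the gene the fractions overlapped, since its Upper-SP arrays ranged from 3.04 to 7.55. Both called Kdm5a and both called Kdm5b probe sets passed with each array left out in turn, and in Lower-SP replicate 3 alone the brightest probe sets differed by 1.5 for Kdm5a and 1.83 for Kdm5b.

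Kdm2b, a CpG island-binding demethylase that also recruits a Polycomb complex, rose by a smaller amount, with 11.47, 11.56 and 11.52 in Lower-SP against 10.91, 11.15 and 11.06 in Upper-SP (difference 0.47, adjusted p = 0.021). Its other probe set differed by -0.08, and the call was lost without Upper-SP replicate 1 (adjusted p = 0.093) and without Lower-SP replicate 2. The called Kdm2b probe set ends in _s_at, a kind that may read several transcripts. Without probe sets ending in _x_at or _s_at, 2 of 13 demethylase genes were higher and 0 lower by limma. Kdm3a and Kdm4c, which act on repressive methyl marks, lay higher without overlap (0.47 and 0.75) but did not pass. With cyclic loess Kdm3a passed at 0.65. The flavin-dependent demethylases Kdm1a (-0.08) and Kdm1b (0.18) did not pass, and Kdm8, near the lowest level tested, differed by -0.79 (adjusted p = 0.12).

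Kdm2a, the close relative of Kdm2b, gave no single answer. Its brightest probe set (0.26) did not pass. Another read 7.53, 7.34 and 7.91 in Lower-SP against 8.55, 9.0 and 8.59 in Upper-SP and was called lower (difference -1.12, adjusted p = 0.012). A dim one read 4.91, 4.94 and 5.93 against 3.96, 4.17 and 4.52 and was called higher (difference 1.04, adjusted p = 0.048), a call that was lost when any of the 6 arrays was left out (adjusted p up to 0.17).

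Methyltransferases split in both directions. Of 20 tested genes, 4 were higher and 5 lower (20% and 25%, against 7.05% and 20.7% of all genes), with a median of -0.44 that kept its sign with every scaling tried (-0.32 with quantile normalization, -0.35 with centring, -0.28 with cyclic loess). Over probe sets, 11 of 44 were higher and 6 lower, against 10.7% and 17.5% of all tested probe sets. The lowered side was led by both members of the Ehmt pair, the euchromatic enzymes that act as a heterodimer and place repressive methyl groups.

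Ehmt1 read 8.52, 8.37 and 8.38 on the Lower-SP arrays, against 10.24, 10.21 and 10.01 on the Upper-SP arrays, a difference of -1.73 (SE 0.15, 3.31-fold lower, adjusted p = 0.0011). Ehmt2 read 8.03, 7.70 and 7.72 in Lower-SP, against 9.70, 9.77 and 9.12 in Upper-SP (difference -1.71, SE 0.22, 3.28-fold lower, adjusted p = 0.0034). The fractions were separated by over a log2 unit for both genes. Each has 1 tested probe set, so neither difference could be compared with a second one, and both calls held with each array left out (in Lower-SP replicate 3 alone the differences were -1.78 and -1.81).

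Setd2, which writes a methyl mark along the bodies of transcribed genes, rose, with 7.36, 7.64 and 7.81 in Lower-SP against 5.95, 6.24 and 6.20 in Upper-SP (difference 1.48, SE 0.22, 2.78-fold, adjusted p = 0.0048). Its 1 tested probe set passed with each array left out. The Kmt2 genes encode the large enzymes that place activating marks at promoters and enhancers. Of 5 tested, 1 was higher and 1 lower at an unadjusted p under 0.05. After adjustment 1 was higher and 0 lower by limma (20% and 0%, against 7.05% and 20.7% of all genes). That gene, Kmt2e, a divergent member required for normal blood stem cell function in mice, read 11.37, 11.29 and 11.19 in Lower-SP against 10.32, 9.83 and 10.53 in Upper-SP (difference 1.06, SE 0.19, adjusted p = 0.0075). Kmt2e was called higher at 3 of its 5 tested probe sets (1.06, 1.24 and 0.68), lay higher without passing at another (0.51), and differed by -0.63 with overlap at the remaining one. The call at 0.68 was lost without either of Lower-SP replicates 1 and 2 or Upper-SP replicates 1 and 2 (adjusted p up to 0.11), and with Lower-SP replicate 3 alone the stronger ones were 0.96 and 1.10.

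The leukemia-associated genes Kmt2a (-0.52) and Kmt2d (-0.35), and Kmt2b (-0.40), did not pass at the brightest probe set. Kmt2c, at -0.26 there, was called lower at another of its probe sets, which read 8.26, 7.65 and 8.39 in Lower-SP against 9.03, 8.98 and 8.84 in Upper-SP (difference -0.85, adjusted p = 0.028). Without Upper-SP replicate 1 that call was lost (adjusted p = 0.12), as it was without Upper-SP replicate 2 or either of Lower-SP replicates 1 and 2.

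Among the Nsd enzymes, which place a methyl mark linked to active chromatin, Nsd3 rose and Nsd1 was mixed. Nsd3 read 10.77, 10.34 and 10.81 in Lower-SP against 9.14, 9.40 and 9.47 in Upper-SP (difference 1.30, SE 0.18, 2.47-fold, adjusted p = 0.0037), and was called higher at 3 of its 6 tested probe sets, with 1.15 and 0.73 at the others called. The remaining 3, at -0.13, 0.30 and -0.24, did not pass. With each array left out the 1.30 held, while 1.15 and 0.73 were lost in 4 of the 6 omissions each (without replicates 1 and 2 of either fraction, adjusted p up to 0.089 and 0.11).

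Nsd1 at its brightest probe set read 7.36, 7.46 and 7.80 in Lower-SP against 8.61, 8.80 and 8.65 in Upper-SP (difference -1.15, SE 0.19, adjusted p = 0.0065). A second probe set read 8.71, 8.83 and 8.24 against 7.27, 6.28 and 8.07 and was called higher (1.38, adjusted p = 0.046), but its Upper-SP arrays spread over more than a log2 unit and the call was lost without any of replicates 1 and 2 of either fraction (adjusted p up to 0.13). Nsd2 was called higher at its dimmest probe set alone (5.78, 5.78 and 5.89 against 5.05, 5.01 and 4.85, difference 0.84), and its brightest differed by -0.41 without passing. That call was lost without replicates 1 or 2 of either fraction (adjusted p up to 0.080).

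Setdb1, which silences retroelements together with zinc finger proteins, had 2 tested probe sets with opposite calls. One read 5.66, 5.61 and 5.45 in Lower-SP against 6.73, 6.19 and 7.05 in Upper-SP (difference -1.08, adjusted p = 0.023). The other read 7.05, 6.99 and 5.90 against 5.06, 4.98 and 5.26 (difference 1.55, adjusted p = 0.015). Without Upper-SP replicate 1 both were lost (adjusted p = 0.099 and 0.071), and the raised one was at 0.80 with Lower-SP replicate 3 alone, its lowest Lower-SP array.

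Setd1b, a catalytic subunit of a promoter methyltransferase complex, read 7.99, 7.64 and 8.05 in Lower-SP against 7.08, 7.04 and 7.09 in Upper-SP (difference 0.82, adjusted p = 0.021). Setd7, which also methylates proteins other than histones, read 9.90, 9.88 and 10.16 against 10.36, 10.47 and 10.63 (difference -0.50, adjusted p = 0.036). Setd1b was lost without Lower-SP replicate 1 or Upper-SP replicates 1 or 2 (adjusted p up to 0.087). Setd7 passed in 1 of 6 omissions (adjusted p up to 0.11) and with none of the 3 other scalings.

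**Figure D2:**
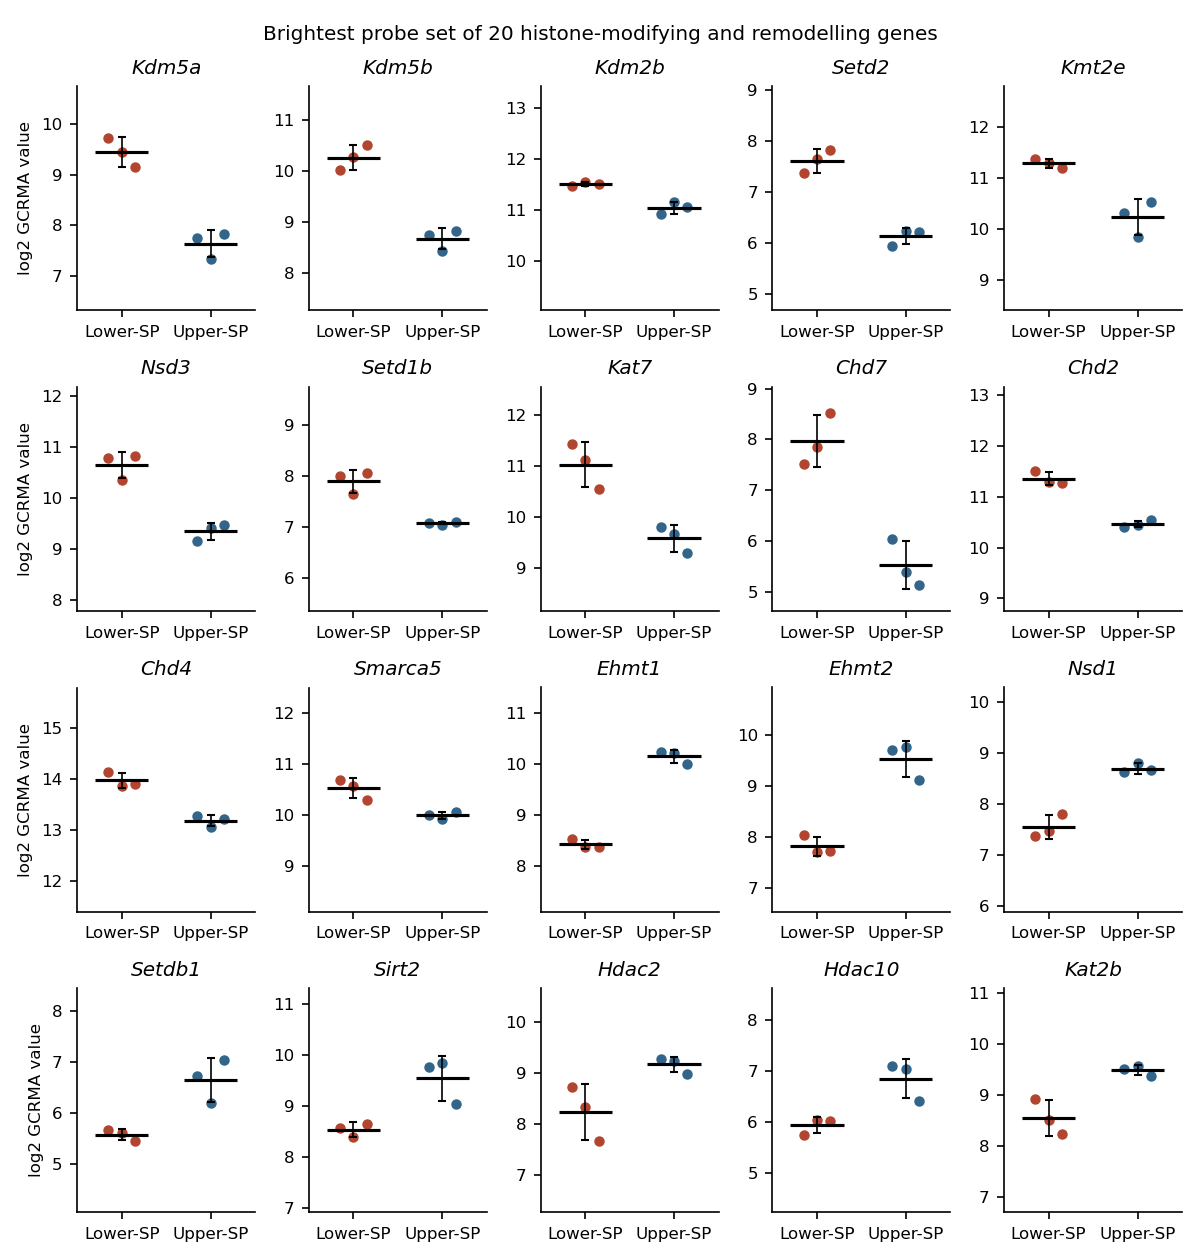
Log2 expression values (y axis, each panel spanning the same number of log2 units) of the brightest tested probe set of 20 member genes in Lower-SP and Upper-SP. Points are the 3 arrays of a fraction in order of replicate number, horizontal lines are means and bars are SD. The first 12 genes lie higher in Lower-SP and the last 8 lower, with no overlap between the fractions, as for Kdm5a (9.44 ± 0.29 against 7.65 ± 0.26) and Ehmt1 (8.42 ± 0.09 against 10.15 ± 0.12).

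Promoters of a pair of raised and a pair of lowered members are shown because their calls passed with each array left out. RefSeq starts were matched for 72 of the 93 genes by symbol, and for 64 of the 84 tested ones. Each line gives the 250 bases before the most upstream start, 5′ to 3′ on the strand of the gene (GRCm38.p6). Capitals mark the GC box, GGGCGG or CCGCCC on the other strand, with overlapping matches counted separately. CCAAT and CCGGAAG were also searched on both strands and neither was found in these 4 windows.
Kdm5b: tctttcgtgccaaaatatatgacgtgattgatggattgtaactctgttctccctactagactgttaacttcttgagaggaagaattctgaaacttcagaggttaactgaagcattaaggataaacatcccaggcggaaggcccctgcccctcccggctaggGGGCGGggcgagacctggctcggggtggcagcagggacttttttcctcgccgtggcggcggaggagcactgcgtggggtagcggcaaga
Setd2: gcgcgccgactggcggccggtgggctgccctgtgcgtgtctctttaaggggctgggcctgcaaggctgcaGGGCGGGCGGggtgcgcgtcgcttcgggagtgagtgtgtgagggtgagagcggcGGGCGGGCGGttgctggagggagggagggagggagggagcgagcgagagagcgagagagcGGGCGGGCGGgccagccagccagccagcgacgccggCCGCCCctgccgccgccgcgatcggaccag
Ehmt1: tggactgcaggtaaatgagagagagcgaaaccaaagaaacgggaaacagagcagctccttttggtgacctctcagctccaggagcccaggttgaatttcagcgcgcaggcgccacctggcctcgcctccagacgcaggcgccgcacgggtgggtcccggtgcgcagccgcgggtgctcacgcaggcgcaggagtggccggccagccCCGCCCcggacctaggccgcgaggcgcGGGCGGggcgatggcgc
Ehmt2: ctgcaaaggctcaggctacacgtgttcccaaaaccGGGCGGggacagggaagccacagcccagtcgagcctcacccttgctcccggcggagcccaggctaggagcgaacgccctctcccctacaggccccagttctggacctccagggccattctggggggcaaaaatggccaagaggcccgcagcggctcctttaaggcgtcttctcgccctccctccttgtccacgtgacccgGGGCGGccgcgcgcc
The windows lie at chr1:134559928-134560177 (plus strand) for Kdm5b, chr9:110532347-110532596 (plus) for Setd2, chr2:24919610-24919859 (minus) for Ehmt1 and chr17:34898224-34898473 (plus) for Ehmt2. Kdm5b held 1 GC box and 13 CpG dinucleotides, Setd2 held 7 and 31, Ehmt1 held 2 and 26, and Ehmt2 held 2 and 18. A GC box was found in 5 of 6 raised and 8 of 13 lowered member genes with a matched promoter, against 61.8% of 7746 tested genes and 33.0% of all 27025 genes. The G and C content had a median of 61.2% in the raised, 61.6% in the lowered and 60.4% in all tested genes. Such a match is a description of the sequence and shows no binding.

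Deacetylase genes were called lower about as often as all genes. Of 15 tested, 0 were higher and 3 lower by limma (0% and 20%, against 7.05% and 20.7% of all genes). At an unadjusted p under 0.05, 0 were higher and 6 lower. Negative differences were seen for 13 of 15, against 6089 of 9460 tested genes. The median of -0.47 kept its sign with quantile normalization (-0.37), centring (-0.38) and cyclic loess (-0.33), beside the -0.24 of all genes. The class averaged 7.61, 7.45 and 7.48 on the Lower-SP arrays, against 8.11, 8.05 and 7.75 on the Upper-SP arrays.

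Sirt2, an NAD-dependent deacetylase of tubulin and histones, read 8.57, 8.38 and 8.65 in Lower-SP against 9.75, 9.83 and 9.03 in Upper-SP (difference -1.0, SE 0.24, adjusted p = 0.019). Hdac2, the class I catalytic subunit of several corepressor complexes, read 8.73, 8.32 and 7.65 against 9.27, 9.24 and 8.99 (difference -0.93, SE 0.28, adjusted p = 0.041). Hdac10, which deacetylates polyamines, read 5.75, 6.04 and 6.03 against 7.10, 7.05 and 6.41 (difference -0.91, adjusted p = 0.036). The fractions did not overlap for any of the 3 genes, but each call was lost in 4 of the 6 omissions of 1 array, with an adjusted p of 0.092 for Sirt2 and 0.15 for Hdac2 and for Hdac10 without Upper-SP replicate 1. In Lower-SP replicate 3 alone Hdac2 was at -1.51. Hdac2, whose called probe set ends in _s_at and may read several transcripts, passed with none of the other 3 scalings. Hdac10 was lost with cyclic loess, while Sirt2 passed with all 3.

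The paralog of Hdac2, Hdac1, differed by -0.16 (9.81, 9.73 and 9.89 in Lower-SP against 10.04, 10.13 and 9.75 in Upper-SP, adjusted p = 0.45). Other Hdac2 probe sets differed by -0.81 and -0.02, neither passing. Hdac3 (-0.74), Hdac7 (-0.91) and Sirt7 (-0.50) lay lower without overlap and did not pass (adjusted p = 0.072, 0.078 and 0.061). Sirt1 (-0.02), Sirt3, the main mitochondrial deacetylase (-0.38), and Sirt6 (-0.47) did not pass either. The positive values were Hdac4 (0.23) and Hdac9 (0.51), class IIa enzymes with little catalytic activity of their own, and neither passed.

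Of 8 acetyltransferase genes, 1 was higher and 2 lower (12.5% and 25%, against the same 7.05% and 20.7%). Their median was -0.50 (-0.38 with quantile normalization). Probe sets ending in _x_at or _s_at may read several transcripts. Without them 2 of 6 acetyltransferase genes were higher and 1 lower, with a median of 0.15. Over all genes 618 of 9024 were then higher and 2010 lower. Kat7, the catalytic subunit of the HBO1 complex, read 11.43, 11.12 and 10.55 in Lower-SP against 9.81, 9.67 and 9.29 in Upper-SP (difference 1.44, SE 0.24, 2.72-fold, adjusted p = 0.0066). Its other probe sets, at 0.06 and -0.72, did not pass. The Kat7 call held with each array left out, and with Lower-SP replicate 3 alone the difference was 0.96.

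Kat2b and Kat2a are the alternative acetyltransferases of the SAGA and ATAC coactivator complexes. Kat2b read 8.93, 8.51 and 8.23 at its brightest probe set, which ends in _s_at, in Lower-SP against 9.52, 9.57 and 9.38 in Upper-SP (difference -0.93, adjusted p = 0.015). A dimmer Kat2b probe set went the other way, with 7.44, 7.22 and 7.37 against 4.98, 5.51 and 4.03 (difference 2.50, SE 0.37, adjusted p = 0.0046). The gap of 3.43 between these differences was the widest of the member genes called in opposite directions. The raised value held with each array left out, and the lowered one was lost without Lower-SP replicate 2, Upper-SP replicate 1 (adjusted p = 0.074) or Upper-SP replicate 2.

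Kat2a read 9.82, 9.98 and 9.96 in Lower-SP against 10.63, 10.76 and 10.20 in Upper-SP (difference -0.61, adjusted p = 0.034), and was lost in 4 of 6 omissions of 1 array (adjusted p = 0.14 without Upper-SP replicate 1) and with each of the 3 other scalings. Kat5 (-0.60) and Kat8 (-0.68), catalytic subunits of the TIP60 and MSL or NSL complexes, lay lower without overlap and did not pass. Kat6a, a regulator of blood stem cells, differed by 0.13.

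Of 20 remodeller genes, 4 were higher and 3 lower (20% and 15%, against 7.05% and 20.7% of all genes). Their median of 0.00 became 0.06 with quantile normalization and 0.09 with centring. Over 42 probe sets, 10 were higher and 4 lower, against 10.7% and 17.5% of all tested probe sets. The 10 include a Chd8 probe set that was tested through its Lower-SP arrays alone. The Chd genes, chromodomain helicases, supplied most of the raised values. Of 9 tested, 3 were higher and 2 lower (33.3% and 22.2%, against 7.05% and 20.7% of all genes).

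Chd7, which binds enhancers, read 7.51, 7.86 and 8.53 in Lower-SP against 6.05, 5.39 and 5.14 in Upper-SP. The fractions were more than a log2 unit apart and the difference was 2.44 (SE 0.35, 5.43-fold, adjusted p = 0.0042). A dim second probe set of Chd7 differed by -1.21 with overlap (adjusted p = 0.064). Chd2 read 11.51, 11.28 and 11.27 against 10.40, 10.44 and 10.54 (difference 0.89, SE 0.12, adjusted p = 0.0038), and its other probe set lay higher at 0.73 (adjusted p = 0.052) and passed with each of the 3 other scalings.

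Chd4, the ATPase of the NuRD corepressor complex, read 14.13, 13.86 and 13.90 in Lower-SP against 13.27, 13.05 and 13.21 in Upper-SP (difference 0.79, SE 0.10, adjusted p = 0.0035). A second Chd4 probe set rose by 1.95, with 9.77, 9.92 and 9.71 against 7.81, 7.15 and 8.57 (adjusted p = 0.0067). A further one differed by -0.75 (adjusted p = 0.058). Chd8, a repressor of beta-catenin targets, differed by 0.17 at its brightest probe set without passing, while 2 dimmer ones were called higher. These read 9.29, 8.99 and 8.80 against 6.46, 6.27 and 7.14 (2.40, adjusted p = 0.0024), and 4.69, 4.73 and 5.42 against 2.93, 3.16 and 2.82. For this dimmest probe set, whose Upper-SP values lay under log2 4, the difference of 1.98 is given as at least 1.93-fold higher, with values under log2 4 set to 4. That probe set met the level for testing through its Lower-SP arrays alone, so it could be called only higher and its call lends no support. The called values of Chd2, Chd4 and Chd7, and the 2.40 of Chd8, passed with each array left out.

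Chd9 fell, with 7.57, 7.70 and 8.07 in Lower-SP against 8.77, 8.47 and 8.70 in Upper-SP (difference -0.87, adjusted p = 0.019), while its other probe set lay at 1.06 without passing. Chd1l, a DNA repair-linked remodeller, read 8.11, 8.04 and 7.91 against 9.05, 9.09 and 8.32 (difference -0.80, adjusted p = 0.042). Chd9 was lost without Lower-SP replicate 1 or 2 or Upper-SP replicate 1 (adjusted p up to 0.092), and Chd1l in 5 of 6 omissions (up to 0.17) and with each of the 3 other scalings. Chd3, the NuRD alternative to Chd4, lay lower without overlap at -0.42 (adjusted p = 0.052).

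Most Smarc genes, though not Smarcad1 and Smarcal1, encode ATPases and core subunits of the SWI/SNF and ISWI remodellers. Of 11 Smarc genes tested, 1 was higher and 1 lower at the brightest probe set (9.09% each, against 7.05% and 20.7% of all genes). Smarca5, the ISWI ATPase, read 10.69, 10.57 and 10.30 in Lower-SP against 10.00, 9.92 and 10.05 in Upper-SP (difference 0.53, adjusted p = 0.030). Smarcc2, a SWI/SNF scaffold, read 7.77, 7.62 and 8.0 against 8.85, 8.64 and 8.59 (difference -0.90, adjusted p = 0.012). Smarca5 was lost in 4 of 6 omissions (adjusted p = 0.11 without Upper-SP replicate 1), and Smarcc2 in 1, without Upper-SP replicate 1 (0.072).

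The SWI/SNF ATPases differed by probe set. Smarca2 differed by -0.02 at its brightest one, but another read 7.08, 6.75 and 7.48 in Lower-SP against 4.74, 4.30 and 5.42 in Upper-SP (difference 2.28, SE 0.34, adjusted p = 0.0047), and passed with each array left out. Smarca4 lay at -0.36 (adjusted p = 0.072) at its brightest and rose by 0.68 at another, with 10.45, 10.22 and 10.43 against 9.76, 9.89 and 9.43. Smarcc1, the partner scaffold of Smarcc2, was likewise at -0.32 without passing and rose by 1.34 at another (7.40, 6.33 and 7.16 against 5.95, 5.54 and 5.39). Smarcd2 differed by 0.25 at its brightest and fell by 0.80 at a second one (7.93, 8.14 and 8.23 against 8.94, 8.97 and 8.79). Of these calls, those of Smarca4 and Smarcd2 were lost in 2 omissions each (adjusted p = 0.075 and 0.072 without Upper-SP replicate 1) and that of Smarcc1 in 4 (up to 0.073).

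Of 7 bromodomain genes, 0 were higher and 2 lower by limma (0% and 28.6%, against 7.05% and 20.7% of all genes, and 0 and 2 at an unadjusted p under 0.05), with a median of -0.03 that became 0.07 with quantile normalization. Brd9, a subunit of a SWI/SNF variant, read 9.83, 9.86 and 9.70 in Lower-SP against 10.54, 10.53 and 10.25 in Upper-SP (difference -0.64, adjusted p = 0.015). Brd8, a subunit of the TIP60 complex, read 9.97, 9.58 and 10.11 against 10.78, 10.72 and 10.37 at its brightest probe set (difference -0.73, adjusted p = 0.024). A further Brd8 probe set read 8.75, 8.75 and 9.34 against 6.96, 7.32 and 7.17 and was called higher (difference 1.80, SE 0.23, adjusted p = 0.0031), while the other 3 tested, at 0.01, -0.09 and 0.61, did not pass.

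The raised Brd8 value passed with each array left out. The lowered one was lost in 4 of 6 omissions (adjusted p = 0.11 without Upper-SP replicate 1) and Brd9 in 2 (0.079). Cyclic loess also lost the lowered Brd8 call. Brdt, known from the testis, was called lower at a dim probe set (4.32, 4.71 and 3.77 in Lower-SP against 5.57, 5.26 and 5.15 in Upper-SP, difference -1.06) and differed by -0.07 at the brighter one. That call too was lost without Upper-SP replicate 1 (adjusted p = 0.12), Upper-SP replicate 2 or Lower-SP replicate 1. Brd2 (0.13), Brd3 (-0.03), Brd7 (0.02) and Brd1 (0.18) did not pass at their brightest probe sets.

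The name rule also took 2 metabolic enzymes that do not act on chromatin. Nsdhl, a sterol dehydrogenase of cholesterol synthesis, read 6.95, 6.47 and 6.94 in Lower-SP against 8.26, 8.36 and 7.56 in Upper-SP (difference -1.27, adjusted p = 0.015, lost without Lower-SP replicate 2, Upper-SP replicate 1 or Upper-SP replicate 2), and Chdh, choline dehydrogenase, was not tested. The 9 member genes with no tested probe set were Chd5, Chdh, Hdac8, Kdm4b, Kdm4d, Sirt4, Sirt5, Smarca1 and Smarcd1, with a highest value of 4.85 among them. Near the level for testing, Chd8 and Kdm4a each had a probe set above log2 4 on 3 arrays (for Chd8 the Lower-SP ones). Kdm4b, Sirt4 and Smarca1 had 1 above it on 2 arrays.

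Several tested probe sets were present for 49 member genes, of which 21 had all differences of 1 sign. In 11 of them at least 2 probe sets were called. Of these 11, 6 were called higher only (Kdm5a, Kdm5b, Kmt2e, Nsd3, Chd4 and Chd8), 0 lower only and 5 in both directions (Kdm2a, Nsd1, Setdb1, Kat2b and Brd8). For Chd8, 1 of the 2 called probe sets was tested through its Lower-SP arrays alone and could be called only higher. Of 694 genes on the whole array with at least 2 called probe sets, 31.3% were called higher only, 48.1% lower only and 20.6% in both directions. Of the 10 probe sets behind the opposite calls, 0 were annotated to a RefSeq mRNA.

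**Figure D3:**
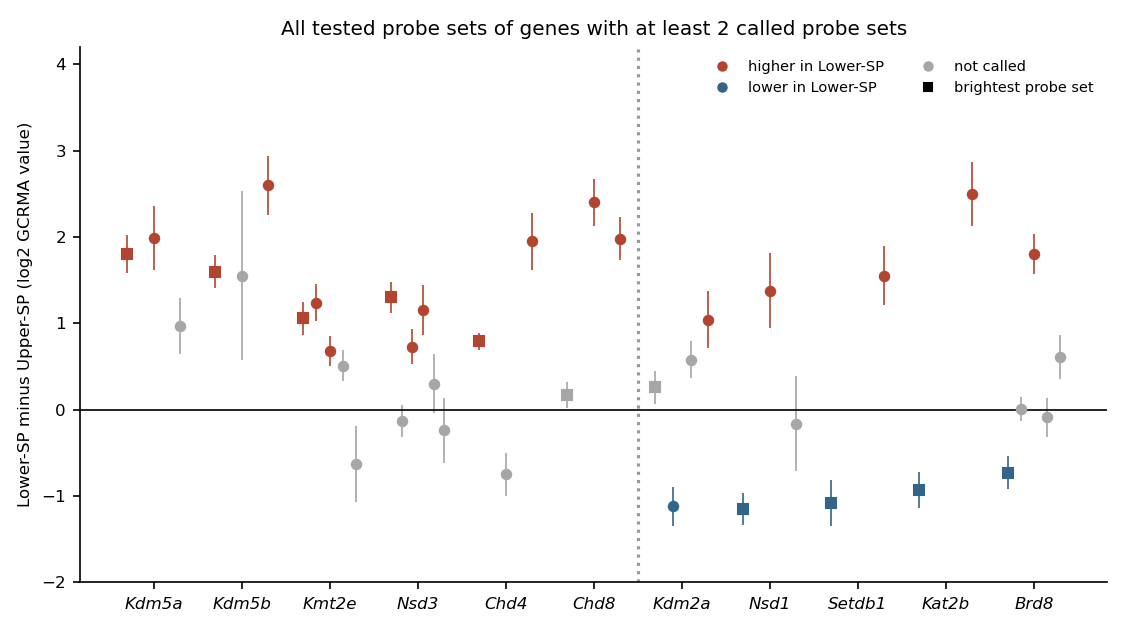
Difference between Lower-SP and Upper-SP in log2 units (y axis) for every tested probe set of the 11 member genes with at least 2 called probe sets, ordered within a gene by falling brightness. Squares mark the brightest probe set, bars are standard errors and colour marks the call. The 6 genes left of the dotted line have raised calls and no lowered one, and the 5 on the right, among them Kat2b at -0.93 and 2.50, have both.

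Counts also differed by the kind of probe set. Of 80 member probe sets that were not the brightest of their gene, 22.5% were higher and 5.0% lower, against 11.5% and 15% of the 6594 such probe sets on the array. The raised ones here, and the 30 below, include the Chd8 probe set that was tested through its Lower-SP arrays alone. A RefSeq mRNA names 17 member probe sets, of which 3 were lower and 0 higher by limma (5 and 0 at an unadjusted p under 0.05), against 26.4% and 3.61% of 2687 on the array. The other 147 member probe sets had 30 raised and 17 lowered (20.4% and 11.6%, against 9.94% and 16.7% of 13367). All 30 raised probe sets of these enzymes, those of Kdm5a, Kdm5b, Chd7 and Setd2 included, were thus named by sequences other than a RefSeq mRNA, as were those of Ehmt1 and Ehmt2. The part of the probe set's position in these differences was not tested.

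Of the 50 called probe sets, 22 passed with each of the 6 arrays left out in turn, 18 higher and 4 lower. The 18 include the Chd8 probe set that was tested through its Lower-SP arrays alone. The 4 were those of Ehmt1, Ehmt2, the lowered Kdm2a and the lowered Nsd1. The other 28 were all lost without Upper-SP replicate 1, and 23 calls were lost without Upper-SP replicate 2. Over all tested probe sets, lowered calls were also lost more than raised ones. Without Upper-SP replicate 1 they had 885 higher and 781 lower, against 2090 and 3430 with all arrays. With quantile normalization, cyclic loess and centring, 43 of the 50 passed under all 3.

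Partner subunits and other chromatin enzymes outside the name rule were followed from lists. Of 147 listed genes, 125 were tested, with 12 higher (9.6%, against 7.05% of all genes) and 24 lower (19.2%, against 20.7%) and a median of -0.18. Other histone lysine methyltransferases had 2 of 8 higher and 2 lower (25% and 25%, against 7.05% and 20.7% of all genes). Kmt5b, which places repressive methyl groups, was raised by 3.13 (10.35 ± 0.16 against 7.22 ± 0.55, SE 0.28, adjusted p = 0.0012), more than any member at its brightest probe set, while its other 3 tested probe sets (0.56, -0.10 and 0.20) did not pass. Prdm2 rose by 0.84, with a second probe set called at 0.51, and Smyd5 (-1.23) and Smyd2 (-0.81) fell, Smyd2 with overlap between the fractions and lost with each of the 3 other scalings.

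Among arginine methyltransferases and further demethylases, 1 of 13 was higher and 3 lower (7.69% and 23.1%, against 7.05% and 20.7% of all genes). Jmjd1c, a relative of Kdm3a, rose by 1.86 (11.20 ± 0.15 against 9.35 ± 0.07, SE 0.13, adjusted p = 0.0010) and by 1.14 at a second probe set. Prmt7 (-1.67) and Riox2 (-1.50) fell, while their other tested probe sets (-0.55 and -0.10) did not pass. In Lower-SP replicate 3 alone Kmt5b differed by 3.30, Jmjd1c by 1.94 and Smyd2 by -0.33.

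Corepressor subunits of the NuRD, Sin3 and CoREST complexes had 2 of 25 higher and 4 lower (8% and 16%, against 7.05% and 20.7%). Gatad2b, a NuRD subunit, rose by 1.66 and Rbbp7, a histone chaperone, by 0.31 (another Rbbp7 probe set was at -0.25), while Hmg20b (-1.81) and Suds3 (-0.92) fell. The COMPASS and menin subunits, partners of the Kmt2 and Setd1 enzymes, had 0 of 12 higher and 3 lower by limma (0% and 25%, against 7.05% and 20.7% of all genes, and 0 and 6 at an unadjusted p under 0.05), led by Hcfc1 (-2.03, 4.69 ± 1.16 against 6.72 ± 0.43) and Cxxc1 (-0.79). SWI/SNF partners had 0 of 15 higher and 2 lower by limma (0% and 13.3%, and 0 and 5 at an unadjusted p under 0.05), Pbrm1 (-0.70) and Phf10 (-0.53, lost with each other scaling). Further tested probe sets of Pbrm1 (-0.42 and -0.03) and Phf10 (-0.29) did not pass. In Lower-SP replicate 3 Hcfc1 lay under log2 4, and Gatad2b differed by 0.79.

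Other remodelling ATPases and partners had 5 of 17 higher and 3 lower (29.4% and 17.6%, against 7.05% and 20.7% of all genes). Ercc6, a repair-linked ATPase, rose by 1.74, and Srcap, which exchanges a histone variant, by 1.0. The other tested Srcap probe set was at -0.36 and did not pass. Ruvbl1 (-0.72) and Ep400 (-0.71) fell, both lost with cyclic loess and Ruvbl1 also with quantile normalization, and Ep400 had a further probe set called lower and 1 called higher (-0.87 and 1.45). Of 35 other acetyltransferases and partners, 2 were higher and 7 lower (5.71% and 20%, near the 7.05% and 20.7% of all genes). Epc2 (1.33) and Ing3 (1.10) rose, and Tada1 (-1.24) and Trrap (-1.06), subunits that work with Kat2a and Kat2b, fell.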

How the data were processed

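RNA of 3 Lower-SP and 3 Upper-SP samples was amplified by repeated in vitro transcription and hybridised, per the labels' protocols. The deposited values are log2 expression values that the authors made with GCOS 1.0 and GCRMA, per the submitters' processing notes. GCRMA subtracts a sequence-based background, puts the arrays on a common scale and summarises each set of probes. Parameters and genome build are not given in the sources used here. GCRMA pulls dim probe sets toward a common floor, so differences near log2 4 are compressed.

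From 45037 probe sets (64 controls left out), 34945 carried 1 symbol in the supplied annotation. The 221 member probe sets all matched a RefSeq gene by Entrez ID. Probe sets above log2 4 on at least 3 arrays were fitted in R 4.3.3 with limma 3.58.1 (lmFit, eBayes with trend, two-sided, residual df 4, prior df 3.80), with Benjamini-Hochberg adjustment across the 19613. A threshold of 0.05 was used. A gene was read through its tested probe set with the highest mean. In a simulated table of 19613 probe sets, 200 of them changed, 12% of changes of log2 1 and 64% of log2 2 were recovered, 5% of calls were false, and 0 calls were made with nothing changed. In the data 5520 were called, and the adjustment depends on the share that changes. The simulated recoveries therefore do not give the power of this comparison. A fold for a group mean under log2 4 is a lower bound, with values under 4 set to 4.

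The members, gene lists, tests and alternatives were chosen with earlier results of these data known. Named members are Kdm5a, Ehmt2, up to 6 called probe sets per direction and class with no overlap, and genes with opposite calls, and for the other chromatin lists up to 2 called genes per direction. Further members were named after their values were seen. Alternatives were no filter, a filter at log2 6, values under 4 set to 4, quantile, cyclic loess and median scaling, a robust or no trend, no _x_at or _s_at probe sets, RefSeq mRNA probe sets alone, a replicate block, the mean of a gene's probe sets, and arrays left out.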

Additional observations from a re-analysis of the deposited data

How the results depend on the processing

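No called member probe set changed sign with another scaling or filter. The fractions did not overlap for any of the 50, so leaving out arrays could not turn a sign. Of the 50 calls, 43 passed with all 3 other scalings, and 22 with every single array left out. With the values as deposited, 30 member probe sets were higher and 20 lower, 12 member genes higher and 16 lower, and 12 other chromatin genes higher and 24 lower. With no filter on level the lower counts were 9 probe sets, 7 genes and 10 other chromatin genes. Over all genes 932 of 18193 were lower without the filter, against 1958 of 9460 with it. The cause of this drop was not tested. Cyclic loess gave 10 lower member genes and 19 higher other genes. With RefSeq mRNA probe sets alone, fewer of which were tested, 0 member probe sets were higher and 3 lower, 0 member genes higher and 2 lower, and 0 other genes higher and 9 lower. With replicate 3 as the only Lower-SP array (replicates 1 and 2 left out), the higher and lower counts were 15 and 11 probe sets, 7 and 7 genes, and 7 and 7 other genes, where the lone array is assumed to vary like the Upper-SP arrays. Leaving out 1 array gave 18 to 33 higher and 4 to 27 lower probe sets, 9 to 13 and 3 to 21 genes, and 5 to 14 and 3 to 30 other genes. Over all tested probe sets it gave 885 to 2455 higher and 781 to 3942 lower. The lower counts were smallest without Upper-SP replicate 1 and largest without Lower-SP replicate 3. The cause of the differences between scalings was not tested.

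The replicate block gave 25 higher and 16 lower probe sets, 11 and 10 genes, and 10 and 15 other genes. Same-numbered arrays did not deviate together (correlations of -0.0513, -0.0294 and -0.0233). The values thus show no pairing by number, but so few arrays cannot exclude it. The labels do not say that a number marks a sorting day. With 3 arrays a group, changes of log2 1 were seldom recovered (12%) in simulated data where 200 probe sets changed. In the real data 5520 were called, so that rate does not carry over. A member that did not pass is still not shown to be unchanged.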
